A study of Bos taurus with 16 samples.

Results

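The A, B, D and E cyclins were followed in single bovine oocytes and embryos across 8 stages of development in vivo. A locus was taken as a member when its gene name equalled CCNA1, CCNA2, CCNB1, CCNB2, CCNB3, CCND1, CCND2, CCND3, CCNE1 or CCNE2. Of these 10 names, 8 were each carried by 1 locus among the 27393 loci of the table. No locus of the table used here carried the names CCNB1 and CCNB3, so B-type cyclins are represented by CCNB2 alone. The stages were MII oocytes, matured in vivo (MII), 2cell, 4cell, 8cell and 16cell embryos (2C, 4C, 8C and 16C), Early morula (EM), Compact morula (CM) and Blastocyst (BL). Each stage had 2 samples, each of them a single oocyte or embryo, which gave 16 samples in all. RNA of each sample was amplified in 2 rounds before SOLiD sequencing. Nothing in the labels says which samples shared a donor cow or a flush, so p-values measure only the spread between these samples.

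Cyclins are the regulatory subunits of cyclin-dependent kinases (CDKs). D-type cyclins bind CDK4 and CDK6 and start the phosphorylation of the retinoblastoma protein in G1, E-type cyclins bind CDK2 at entry into S phase, A-type cyclins act in S phase and G2, and B-type cyclins bind CDK1 and drive mitosis and meiotic maturation. Early cleavage runs largely on stored maternal mRNA until embryonic genome activation (EGA), which was placed between 4C and 8C for bovine embryos in vivo. "Before EGA" means the 6 MII, 2C and 4C samples and "after EGA" the 10 samples from 8C to BL.

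Levels are given as normalised read counts, which are reads divided by a size factor of the sample and not by gene length, so that levels of different genes are not compared. Depth was 1440058 to 3379426 reads per sample before EGA and 607672 to 1805933 after it, and 1 read was worth 0.365 to 1.80 normalised read counts. The size factor sets a common scale for each sample, and the total RNA of an oocyte or embryo cannot be read from it. A morula or blastocyst is a mixture of cells, in which fewer cells of a type and less RNA per cell cannot be told apart. The 8 detected of 9 listed oocyte markers summed to 4044 to 24451 before EGA and 6.09 to 9.51 in BL, while BMP15, a defining oocyte gene, was at 0 in every sample. The 8C samples were the least alike of any stage (Pearson r = 0.729 across loci) and their oocyte markers summed to 37.8 in sample 1 and 1748 in sample 2. The 9 listed cumulus and granulosa markers summed to 113 to 405 before EGA, mostly through HAS2, and to 5.54 to 98.0 after it, with FOXL2 at 0. Of the blood markers, HBB and HBA were at 0 in all 16 samples and PTPRC had 4 reads, all in 8C sample 1. The part of carried-over oocyte RNA or of other cells in the cyclin values was not tested.

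**Figure D1:**
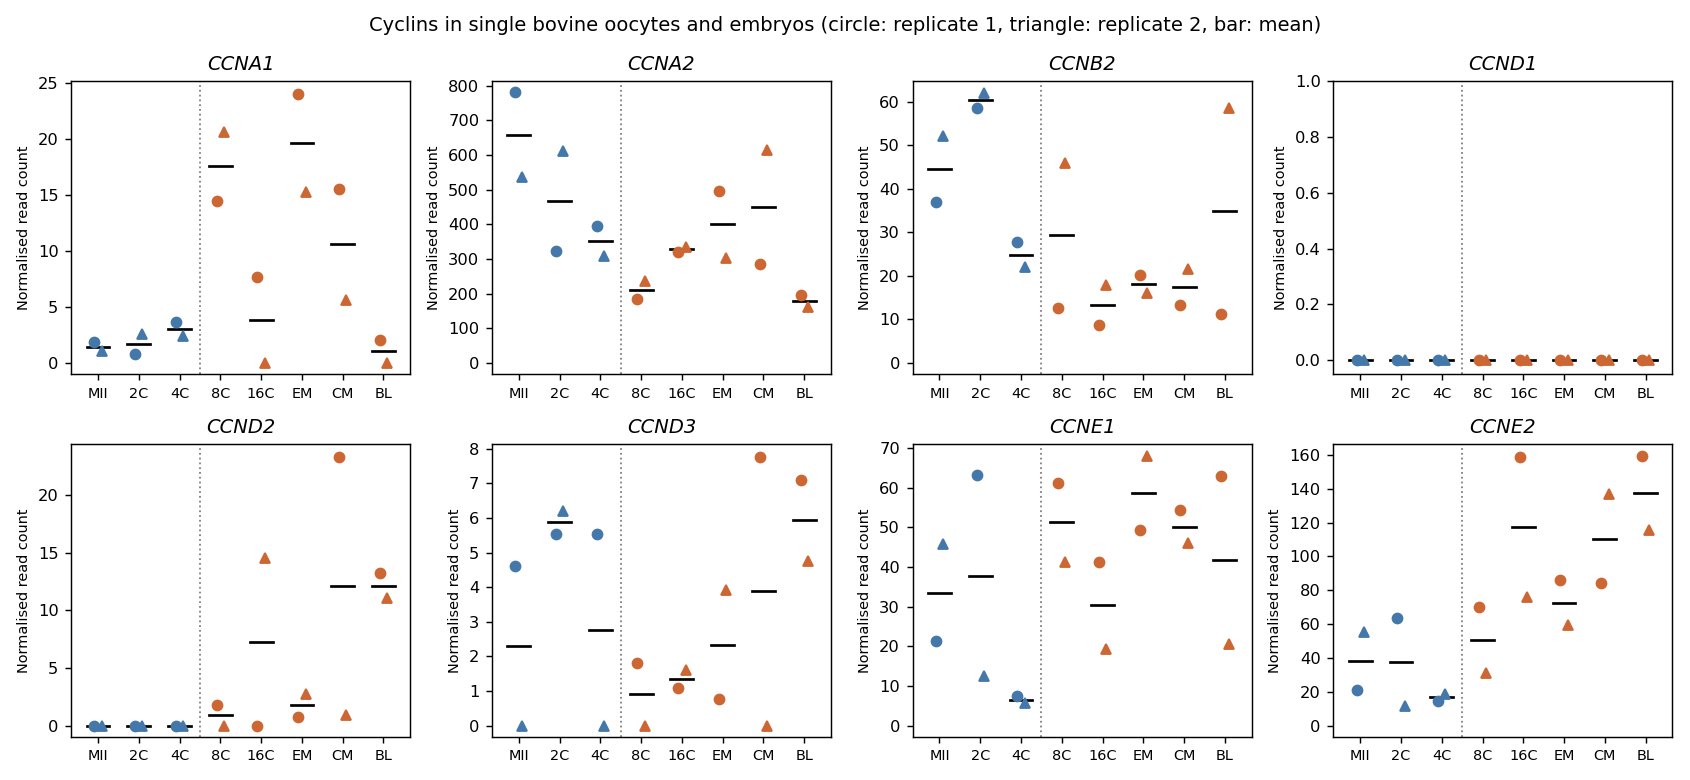
Normalised read count (vertical axis, a separate linear scale for each gene) of the 8 cyclins found, by stage. Circles are replicate 1, triangles replicate 2, bars the mean of 2 samples, blue is before EGA, orange is after EGA and the dotted line marks EGA; CCNE2 reached 159 in 16C and BL after a highest value of 63.3 before EGA, CCND2 was at 0 in the 6 samples before EGA, and CCND1 was at 0 in all 16.

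Cyclin E mRNA, which marks commitment to S phase, was more abundant after EGA for both genes. CCNE2 rose 3.42-fold and CCNE1 rose 2.30-fold, the latter from a low point in the 4C embryos. CCNE2 was called under every alternative processing tried, and CCNE1 was not.

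For CCNE2 (locus XLOC_015024), normalised read counts were 21.2 and 55.3 in MII, 63.3 and 11.7 in 2C and 14.8 and 18.7 in 4C. They were 70.3 and 31.0 in 8C, 158.9 and 76.0 in 16C, 85.8 and 59.4 in EM, 84.2 and 137 in CM and 159 and 116 in BL. The lowest pair of values was in 4C, and 8 of the 10 samples after EGA lay above the highest sample before it. The exceptions were 8C sample 2 and EM sample 2, so the periods overlapped. The mean was 30.8 ± 22.4 (SD, n = 6) before EGA and 97.8 ± 43.3 (SD, n = 10) after it. On the scale of log2(normalised read count + 1) the change was 1.77 (SE 0.42, 95% interval 0.89 to 2.66), with a limma adjusted p of 9.6e-04. By stage mean the order was BL, 16C, CM, EM, 8C, MII, 2C and 4C, and the samples of neighbours in that order overlapped at every position.

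For CCNE1 (locus XLOC_023992), the values were 21.2 and 45.7 in MII, 63.3 and 12.4 in 2C and 7.38 and 5.69 in 4C. They were 61.3 and 41.3 in 8C, 41.4 and 19.4 in 16C, 49.5 and 68.0 in EM, 54.3 and 46.0 in CM and 62.9 and 20.6 in BL. The 4C samples lay below every other sample, and the MII samples and 2C sample 1 lay within the range of the later stages. The mean was 26.0 ± 23.4 (SD, n = 6) before EGA and 46.5 ± 16.6 (SD, n = 10) after it. The change was 1.20 on the log2 scale (SE 0.47, 95% interval 0.22 to 2.19; limma adjusted p = 0.0299). That call was lost by edgeR (0.75, adjusted p = 0.180) and DESeq2 (0.85, adjusted p = 0.111) on the recovered reads. It was also lost without 2C sample 2 (adjusted p = 0.0642), 4C sample 1 (0.0887) or 4C sample 2 (0.0998), and without the 8C embryos (0.0540).

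The step from 4C to 8C was the only call for a member among the 42 member steps between adjacent stages that limma tested. CCNE1 rose there by 2.78 on the log2 scale (SE 0.77, 95% interval 1.15 to 4.41; limma adjusted p = 0.0114). It was 1 of 6 members tested at that step, at which 36.8% of all 9670 loci were called. The call was lost without 4C sample 2 (adjusted p = 0.0713) or 8C sample 1 (0.0654), and when only the compared stages were fitted (0.0509). From 2C to 4C CCNE1 changed by -1.97, with an unadjusted p of 0.0209 and an adjusted p of 1 in limma. The E cyclins had equal numbers of reads in 2 of the 16 samples, MII sample 1 and 2C sample 1, and how the authors treated reads with several matches is not given in the sources used here.

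Cyclin A is made from CCNA2, the A-type cyclin of somatic cells, and CCNA1, which is best known from the germ line. Reads of CCNA2 were present in all 16 samples and reads of CCNA1 in 14. By normalised read count the stage mean of CCNA2 was highest in MII and lowest in BL. In reads per 1e6 reads of the sample (CPM) it was highest in EM (477) and lowest in 8C (162). On that scale MII was at 298 and BL at 169. CCNA2 did not pass the test at EGA, while CCNA1 had its highest values in 8C, EM and 1 of the CM samples.

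For CCNA2 (locus XLOC_060067), normalised read counts were 782 and 535 in MII, 324 and 610.2 in 2C and 396 and 309 in 4C. They were 184 and 235 in 8C, 320.0 and 335 in 16C, 496 and 303 in EM, 286 and 613 in CM and 196 and 160.0 in BL. The lowest values were in 8C and BL, and a CM sample lay above both 2C samples, so the periods overlapped. The mean was 493 ± 185 (SD, n = 6) before EGA and 313 ± 143 (SD, n = 10) after it. The difference was -0.69 on the log2 scale (SE 0.34, 95% interval -1.41 to 0.02) and did not pass the test (limma adjusted p = 0.0808). It passed only when CM sample 2 was left out (adjusted p = 0.0399). From CM to BL CCNA2 changed by -1.24, with an unadjusted p of 0.0345 and an adjusted p of 0.231 in limma.

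CCNA1 (locus XLOC_010552) had 143 reads over all samples, 18 of them before EGA. Its values were 1.85 and 1.06 in MII, 0.791 and 2.55 in 2C and 3.69 and 2.44 in 4C. They were 14.4 and 20.6 in 8C, 7.62 and 0 in 16C, 24.0 and 15.2 in EM, 15.5 and 5.63 in CM and 2.03 and 0 in BL. Both 8C and both EM samples lay above every sample before EGA, and both BL samples lay below both 4C samples. CCNA1 passed the filter of the 8-stage model only through the stages where it is high, so that it had to vary with stage there. Its limma adjusted p (0.0183, and 0.0554 without EM sample 1) and its steps are therefore given as descriptions. Its steps reached 2.19 from 4C to 8C, -2.64 from 8C to 16C, 2.78 from 16C to EM and -2.59 from CM to BL, with limma adjusted p of 0.0919, 0.186, 0.288 and 0.164. None of these adjusted p was below 0.05, and the unadjusted p ran from 0.0121 to 0.0406. For the step from 4C to 8C the limma adjusted p was 0.0297 with a pseudocount of 5 (change 1.47), 0.0486 without 16C sample 1 and 0.0488 without 16C sample 2. CCNA1 did not pass the filter on low reads for the comparison of periods. The exact two-sided permutation test over the samples gave a difference of 1.31 on the log2 scale and an unadjusted p of 0.0997, and p = 0.0300 without 16C sample 2 or without BL sample 2, the libraries at 0.

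CCNB2 (locus XLOC_004287), the B-type cyclin that was found, was lower after EGA. Values were 36.9 and 52.1 in MII, 58.6 and 62.0 in 2C and 27.7 and 21.9 in 4C. They were 12.6 and 45.9 in 8C, 8.71 and 17.8 in 16C, 20.1 and 16.0 in EM, 13.3 and 21.6 in CM and 11.2 and 58.6 in BL. The 2C samples lay above the MII samples, and the 4C samples above all 16C, EM and CM samples. In CPM the 4C samples (20.8 and 16.6) lay below both EM samples (21.2 and 22.7). On that scale 16C sample 2 (18.1) lay between the 4C samples. The samples 8C 2 and BL 2 stood well above the other sample of their stage, and 8C sample 2 is also the one with oocyte markers at 1748. The mean was 43.2 ± 16.8 (SD, n = 6) before EGA and 22.6 ± 16.4 (SD, n = 10) after it. CCNB2 fell by 1.05 on the log2 scale (SE 0.42, 95% interval -1.93 to -0.18; limma adjusted p = 0.0328), and the change was -1.20 (adjusted p = 0.0188) without 8C sample 2 and 16C sample 2, an alternative chosen after seeing the data. The call was lost with scaling by total reads (-0.59, adjusted p = 0.280) and in DESeq2 (-0.95, adjusted p = 0.0501). It was also lost without MII sample 2, 2C sample 1, 2C sample 2, 16C sample 1, CM sample 1 or BL sample 1, with adjusted p from 0.0513 to 0.0789.

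Among the D cyclins, which link growth factor signals to the cell cycle, CCND1 had no reads, CCND2 had reads only after EGA and CCND3 stayed at a few reads. CCND1 (locus XLOC_048684) was at 0 in all 16 samples. A count of 0 in 23342921 reads allows up to 0.129 CPM (reads per 1e6 reads of the sample), a limit that covers counting error only.

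For CCND2 (locus XLOC_057692), the 6 samples before EGA were at 0. After EGA the values were 1.80 and 0 in 8C, 0 and 14.6 in 16C, 0.773 and 2.74 in EM, 23.3 and 0.938 in CM and 13.2 and 11.1 in BL. The gene had 60 reads in 8 of the 10 samples after EGA, and 50 of them were in 16C sample 2, CM sample 1 and both BL samples. The pooled level after EGA was 5.53 CPM, at least 23.0-fold higher than before EGA when the floor is set at 3 reads over the group. It was at least 20.7-fold higher without 16C sample 2, and at least 16.4-fold higher without CM sample 1, which held 21 of the 60 reads. These folds set a pooled level against a counting limit before EGA and do not cover the spread between embryos. The exact two-sided permutation test over the samples gave an unadjusted p of 0.0126 for a difference of 2.12 on the log2 scale, a size that depends on the pseudocount. Adjusted over the 3 members tested in this way, p was 0.0378, and it was above 0.05 in 10 of 17 alternatives, at most 0.0647 (without BL sample 1). CCND2 entered the 8-stage model only through the stages where it is high, so its stage p is a description. It was 0.0652 in limma (adjusted), 0.0286 in edgeR, and 0.0139, 0.0228 and 0.0156 in limma without 16C sample 1, 16C sample 2 and CM sample 2.

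The samples with the most CCND2 were the samples after EGA with the most KRT8 and KRT18, keratins of the trophectoderm, and the other listed trophectoderm markers did not follow that pattern throughout. KRT8 and KRT18 were at 100.3 and 112 in 16C sample 2, 31.0 and 55.4 in CM sample 1, 543 and 401 in BL sample 1 and 543 and 396 in BL sample 2. In the other samples after EGA, KRT8 was at 7.21 or below and KRT18 at 16.3 or below. The other 16C sample had 0 CCND2, KRT8 at 5.44 and KRT18 at 16.3, and the other CM sample had CCND2 at 0.938 with both keratins at 0. KRT8 alone was at 24.0 and 46.8 in the MII samples, where CCND2 was at 0. TFAP2C was at 110.0 in 16C sample 2 and 135 in CM sample 1, below EM samples 1 and 2 (251 and 199), where CCND2 was at 0.773 and 2.74. GATA3 was at 40.4 in 16C sample 2, 12.2 in CM sample 1 and 182 and 149 in BL, and at 27.2 in 16C sample 1, where CCND2 was at 0. All 5 listed markers together summed to 1241 to 1330 in BL and 362 in 16C sample 2, but to 234 in CM sample 1 against 264 in EM sample 1. CDX2, a defining trophectoderm gene, had a single read in all. Whether CCND2 reads came with trophectoderm cells was not tested.

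**Figure D2:**
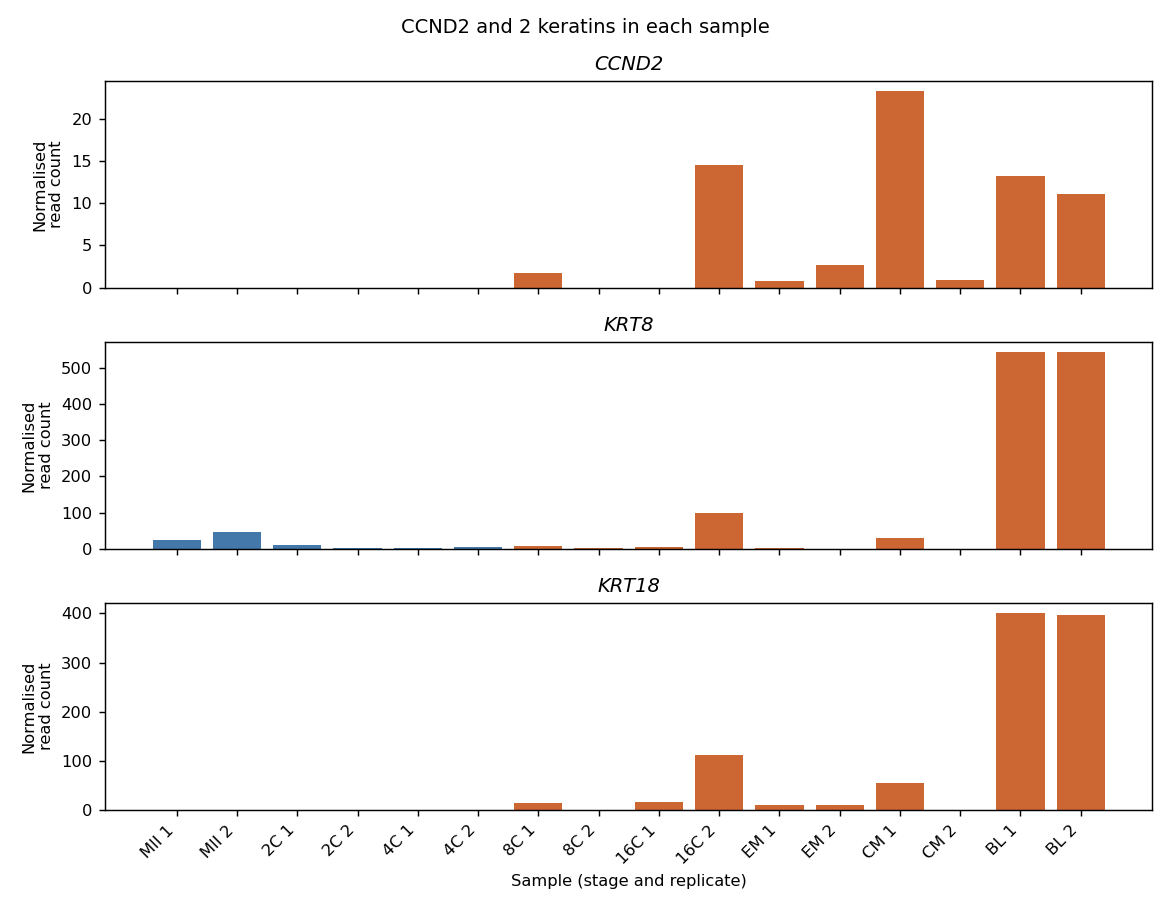
Normalised read count (vertical axes, linear from 0) of CCND2, KRT8 and KRT18 in each of the 16 samples, named by stage and replicate, with blue bars before EGA and orange bars after EGA. CCND2 was over 11 in 16C 2, CM 1, BL 1 and BL 2, the samples in which KRT18 was 55.4 or higher.

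CCND3 (locus XLOC_039667) had 66 reads in 12 samples. Its values were 4.62 and 0 in MII, 5.54 and 6.20 in 2C, 5.53 and 0 in 4C, 1.80 and 0 in 8C, 1.09 and 1.62 in 16C, 0.773 and 3.91 in EM, 7.76 and 0 in CM and 7.10 and 4.75 in BL. Samples at 0 occurred in 4 stages on both sides of EGA, and no shift was detectable at this depth. The mean was 3.65 ± 2.87 (SD, n = 6) before EGA and 2.88 ± 2.85 (SD, n = 10) after it, and the exact two-sided permutation test gave p = 0.727 for a difference of -0.22 on the log2 scale.

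Counted over the members, 2 of the 6 that passed the filter of the 8-stage model were called for a stage effect in limma, CCNA1 and CCNE2, against 66.7% of all loci. CCNA1 and CCND2 had passed that filter only through the stages where they are high, so the count is a description. CCNE1 (adjusted p = 0.0511), CCNA2 (0.0835) and CCNB2 (0.215) did not pass, although CCNA2 did in DESeq2 (0.0167) and without 2C sample 1 (0.0479). The CCNE2 stage effect was lost without 4C sample 1 (adjusted p = 0.0693), 4C sample 2 (0.0543) or BL sample 1 (0.0614), and that of CCNE1 passed with scaling by total reads (0.0161) and when any of 2C sample 1 (0.0165), 2C sample 2 (0.0179) and BL sample 2 (0.0465) was left out. At EGA, 3 of the 4 members tested were called, close to the 66.8% of loci called in either direction. Of these 4, 2 were higher, against 36.9% of all loci, and 1 was lower, against 29.9%. None of the 4 was free of overlap between the periods, against 30% of loci tested.

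At the other steps no member was called by limma, edgeR or DESeq2, and 7 of the 42 member steps had an unadjusted p below 0.05 in limma. The share of all loci called was 1.42% from MII to 2C, 0% from 2C to 4C, 0.858% from 8C to 16C, 0.103% from 16C to EM, 0% from EM to CM and 4.42% from CM to BL. The other tools gave different numbers of loci: from MII to 2C limma called 137, DESeq2 360 and edgeR 44, and from CM to BL 427, 356 and 154. From 8C to 16C limma called 83, DESeq2 142 and edgeR 0, and from 16C to EM 10, 114 and 0. For the steps with 0 loci called by limma, 441 loci from 2C to 4C and 485 from EM to CM had an unadjusted p below 0.05. DESeq2 called 1 and 5 loci there, and edgeR 0 and 0.

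A ratio of cyclins of the same family within a sample depends neither on the scaling of that sample, apart from the pseudocount of 1, nor, for its change, on gene length. The log2 ratio of CCNA1 to CCNA2 was -8.10 and -8.02 in MII, -7.50 and -7.43 in 2C and -6.40 and -6.49 in 4C. It was -3.58 and -3.45 in 8C, -5.22 and -8.39 in 16C, -4.32 and -4.22 in EM, -4.12 and -6.53 in CM and -6.02 and -7.33 in BL. The sample pairs of MII, 2C and 4C lay apart from each other, and 7 of 10 samples after EGA lay above all of them. Before EGA CCNA1 had 1 to 7 reads per sample, so the order of MII, 2C and 4C rests on few reads and the pseudocount. The values of 16C sample 2 (-8.39) and BL sample 2 (-7.33) came from 0 reads of CCNA1. The mean moved from -7.32 ± 0.73 (SD, n = 6) to -5.32 ± 1.69 (SD, n = 10), and the exact two-sided permutation test gave p = 0.0190 (adjusted over the 3 pairs that could be formed, 0.0285). Adjusted over the 8 pairs planned, of which 5 had a member without reads or without a locus, it was 0.0759. Over 8 pairs the ratio passed with a pseudocount of 5 (adjusted p = 0.0195), without 16C sample 2 (0.0184) and without BL sample 2 (0.0456). It also passed so without 8C sample 2 and 16C sample 2 together (0.0306). Over 3 pairs it did not pass without the 8C embryos (adjusted p = 0.0673), without MII sample 1 (0.0579), without MII sample 2 (0.0554) or with a pseudocount of 0.5 (0.0581).

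The log2 ratio of CCND2 to CCND3 moved from -1.79 ± 1.39 (SD, n = 6) before EGA to 0.54 ± 1.05 (SD, n = 10) after it, and 5 of 10 samples after EGA lay above all samples before it. The highest value before EGA, 0 in MII sample 2 and 4C sample 2, came from 0 reads of both genes. So did the value of 8C sample 2, while 8C sample 1 and EM sample 1 had 1 read of each gene. The exact two-sided permutation test gave p = 0.0035, which is 0.0105 adjusted over 3 pairs and 0.0280 over the 8 planned. Over 8 pairs the call was lost in 7 of 22 alternatives, in each through leaving out a single sample (MII 1, 2C 1, 2C 2, 4C 1, CM 1, CM 2 or BL 1), with adjusted p from 0.0511 to 0.0639. Both genes rested on few reads, and before EGA the ratio is set by CCND3 and the pseudocount. The ratio of CCNE1 to CCNE2 was -0.44 ± 0.66 (SD, n = 6) before EGA and -1.02 ± 0.96 (SD, n = 10) after it, and the exact two-sided permutation test did not pass (p = 0.220). It lay below -1.9 in both 16C samples and between -0.20 and 0.40 in the 8C samples.

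**Figure D3:**
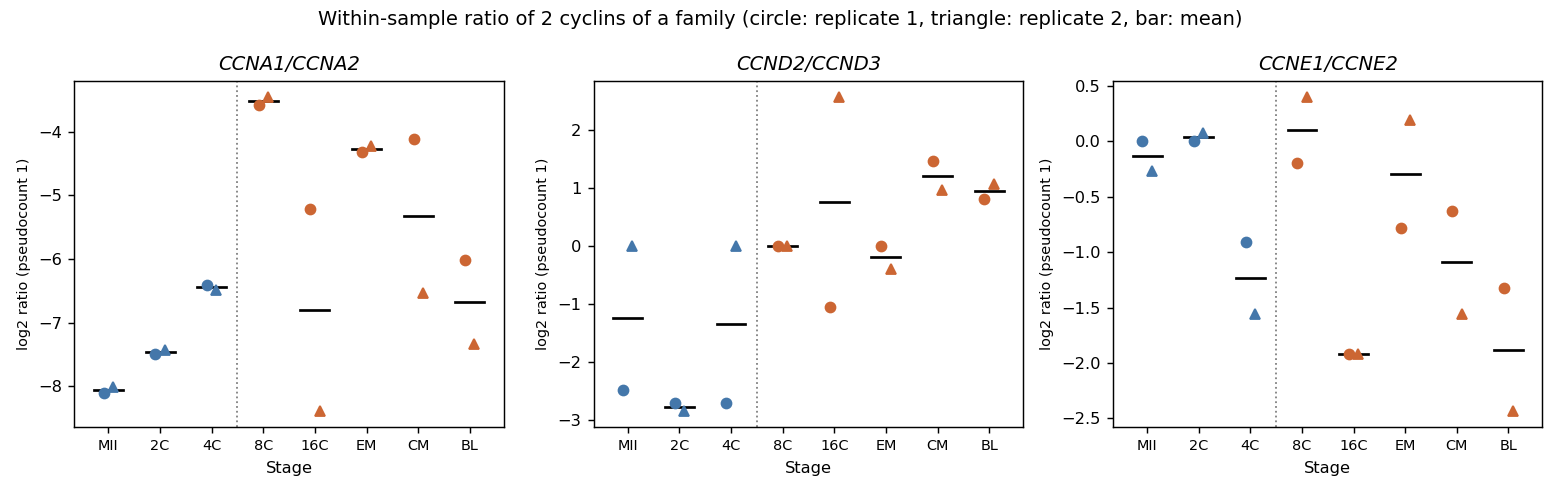
Within-sample log2 ratio (vertical axis, pseudocount 1) of cyclins of a family by stage. Circles are replicate 1, triangles replicate 2, bars the mean, blue is before EGA, orange is after EGA and the dotted line marks EGA; CCNA1/CCNA2 was at most -6.40 before EGA and reached -3.45 in 8C.

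The partners of the cyclins were read from the same limma comparison of periods through a list of 70 genes, of which 69 were found and 44 passed the filter. After EGA 13 of the 44 had risen and 15 had fallen, 63.6% in all against the 66.8% of loci. Of the 44, CDKN2D, MYBL2, NFYA, PKMYT1 and WEE1 exceeded the read filter's level (7.42 CPM) only after EGA. Higher values there were thus fixed by the filter, and their changes are descriptions. Of the other named rises, UBE2S, E2F6, TFDP2 and CCNL1 exceeded that level in 1 sample before EGA and 8 to 10 after it. UBE2C and CCNC did so in 2 samples before and 10 after. These genes passed mainly through the samples after EGA, so their rises are descriptions too. Without the 5 genes over that level only after EGA, 9 of 39 partners rose and 15 fell. The shares over all loci (36.9% higher, 29.9% lower) were not cleared of loci that passed in this way. They compare only with the 13 and 15 of the 44. The counts by role below are descriptions on few genes, and the share called was 63.6% to 71.4% in the roles of cyclin destruction, pocket proteins and E2F, and other cyclins, near the 66.8% of all loci. It was 50% for CDKs, 40% for cyclin gene activators and 100% for the 2 CDK subunits. CDK inhibitors, and CDK kinases and phosphatases, stood at 66.7%. The median change of the 44 was -0.30 on the log2 scale, against 0.23 over all loci tested.

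Among the kinases, CDK4, the partner of D cyclins, rose by 2.00 (adjusted p = 6.0e-04 in limma), from 73.7 ± 44.1 (SD, n = 6) to 236 ± 77.5 (SD, n = 10). CDK6, the other D cyclin partner, was not tested and was at 0 to 0.812 before EGA and 0 to 21.0 after it. CDK1, the partner of cyclin B, was at 39.8 ± 23.8 (SD, n = 6) and 53.1 ± 21.4 (SD, n = 10) and did not pass (0.51, limma adjusted p = 0.272). CDK2, the partner of cyclins E and A, was at 21.5 ± 22.0 and 23.2 ± 12.6 and did not pass (0.75, limma adjusted p = 0.273), with the sign turned in edgeR (-0.034). CDK7, the CDK-activating kinase, fell by 2.67, and its cyclin CCNH fell by 2.44. Of 3 CDK inhibitors tested, CDKN2D, an inhibitor of CDK4 and CDK6, was called higher at 2.02, with its direction fixed by the filter. CDKN1B was lower at -0.99, a call lost with scaling by total reads, without 4C sample 2 and without the 8C embryos.

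Of the kinases that hold CDK1 inactive, WEE2 and WEE1 went opposite ways and PKMYT1 did not pass (1.15, limma adjusted p = 0.0712). WEE2, the oocyte form, fell by 9.19, from 5686 to 107165 before EGA to 13.1 to 109 after it. WEE1, the somatic form, had 0 reads in the 6 samples before EGA and 128 in the 10 samples after it, at least 49.1-fold higher at the floor of 3 reads over the group. That fold does not cover the spread between embryos. Of the 6 genes of this group, 3 were lower and WEE1 alone was called higher, with its direction fixed by the filter. Among the lower genes was CDC25B, a phosphatase that activates CDKs, at -3.22. Both CDK subunits were lower, CKS1B at -3.41 and CKS2 at -1.03, and CKS2 was lost with scaling by total reads and without MII sample 2. CDK7, CKS1B and WEE2 each had 2 loci under the name, of which the one with the higher mean was read.

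In cyclin destruction, 2 genes were higher and 3 lower of 7 tested, 71.4% called against 66.8% of all loci. UBE2C and UBE2S, which serve the anaphase-promoting complex that marks cyclins A and B for destruction, rose by 2.23 and 1.38, the latter lost without 4C sample 2. Both passed the filter mainly through the samples after EGA, so their rises are descriptions. FBXW7 and SKP2, receptors of the ubiquitin ligases that act on cyclin E and on CDK inhibitors, fell by 2.02 and 2.64. Among pocket proteins and E2F factors, 2 were higher and 2 lower of 6 tested, 66.7% called against 66.8% of all loci. RB1 was at -3.38, RBL2 at -3.77, E2F6 at 2.53 and TFDP2 at 3.06. E2F6 and TFDP2 passed the filter mainly through the samples after EGA. RB1 passed through those before it (6 samples over the level before, 1 after). The changes of RB1, E2F6 and TFDP2 are therefore descriptions. Among activators of cyclin genes, the 2 genes called of 5 tested were NFYA (3.31) and MYBL2 (1.46), both with the direction fixed by the filter. MYBL2 lost its call in 8 of 27 alternatives. Of 11 other cyclins tested, 4 were higher and 3 lower, 63.6% called against 66.8% of all loci. CCNC (3.35) and CCNL1 (3.08), both cyclins of transcription, were the largest rises, and CCNYL1 (-3.26) and CCNH (-2.44) the largest falls. CCNC and CCNL1 passed the filter mainly through the samples after EGA, so their rises are descriptions.

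**Figure D4:**
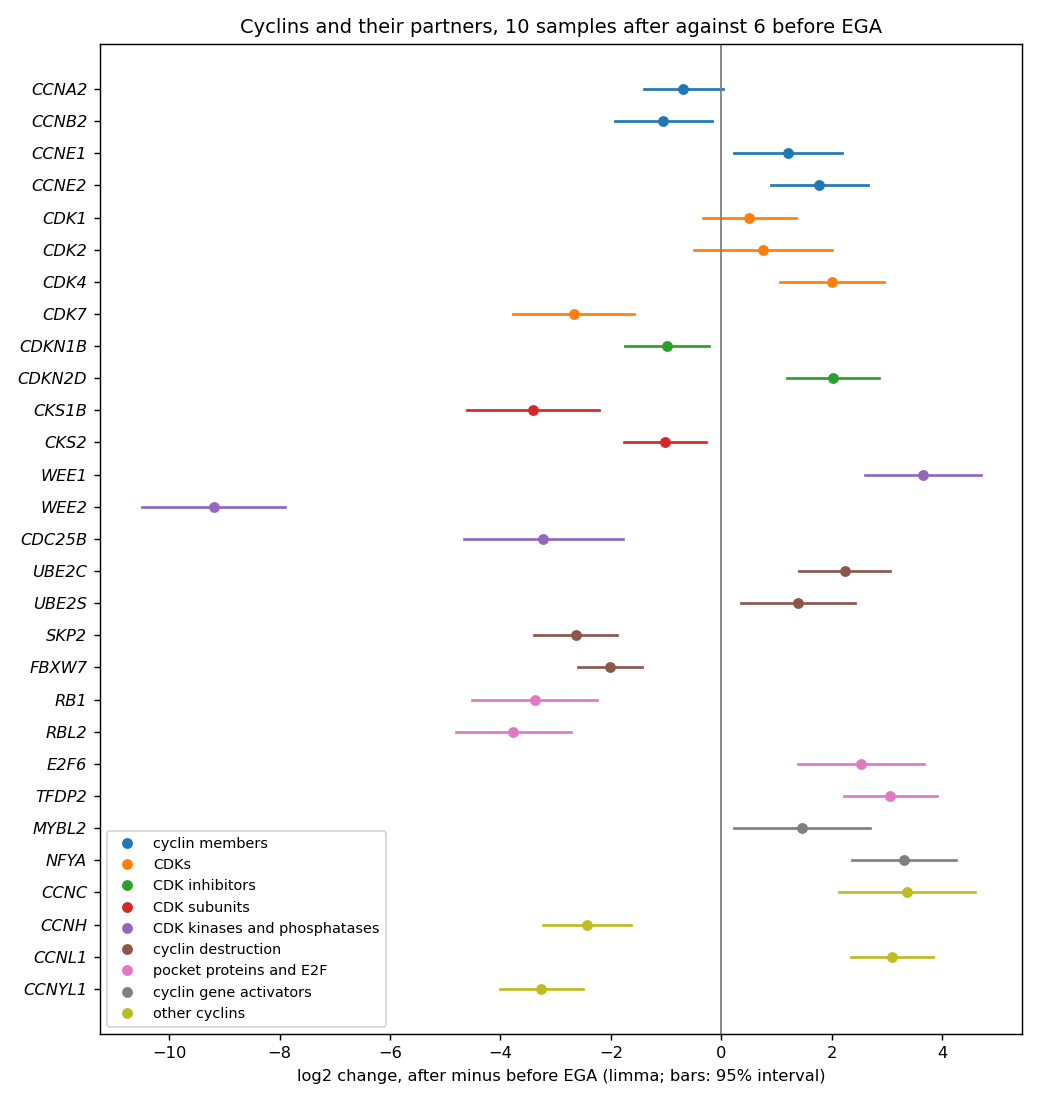
Change in log2(normalised read count + 1), 10 samples after minus 6 before EGA (horizontal axis), of the 4 tested cyclins and the named partner genes, coloured by role. Points are limma estimates and bars 95% intervals; CCNE1 and CCNE2 lie to the right of 0, CCNB2 to the left, CCNA2 reaches over 0, and the WEE1 point has 0 reads before EGA, so that its size depends on the pseudocount.

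The loci with a gene symbol whose values over the 16 samples were most like each member were listed by Pearson r of log2(normalised read count + 1), out of 8365 loci. They were HNRNPL (r = 0.921) and HDAC1 (0.918) for CCNE2, AHCYL1 (0.852) and BTF3 (0.851) for CCNE1, and PHAX (0.859) and ESF1 (0.782) for CCNA2. For CCNA1 they were RNF122 (0.871) and MFSD2A (0.867), for CCNB2 VPS13A (0.852) and SCCPDH (0.834), and for CCND2 PLAU (0.930) and CACNA1H (0.911). The points share their libraries and stages, and these correlations are descriptions without a test.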

How the data were processed

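Single in vivo matured oocytes and embryos (16 samples, 2 at each of 8 stages) were sequenced after amplification. The deposited table holds a signal per locus: read counts that the authors divided by a size factor of the sample, not by gene length. Submitters' processing notes name cutadapt, FastQC, TopHat, Cufflinks and HTSeq; versions and the genome build are not given in the sources used here. In every sample 100% of values were whole multiples of the value of 1 read (tolerance 0.01), so reads were recovered, 607672 to 3379426 per sample.

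Levels are the deposited values. Tests across loci used limma 3.58.1 in R 4.3.3 (empirical Bayes with trend) on log2(value + 1), with Benjamini-Hochberg adjustment over all loci tested and a threshold of 0.05. Fold changes on that scale understate low genes. The filterByExpr function of edgeR, given the recovered reads, removed low loci and left 9670 loci for the 8-stage model and 6910 for the periods; 6 and 4 members passed. A member that passed through the stages where it is high, such as CCNA1 or CCND2, was bound to vary. Members below the filter and family ratios were tested by exact permutation over the 8008 divisions of the samples into 6 and 10. The ratio test was planned with adjustment over 8 pairs, and only 3 could be formed. Alternatives were edgeR 4.0.16 and DESeq2 1.42.0 on the recovered reads, TMM and total-read scaling, pseudocounts of 0.5 and 5, no filter, a replicate block, summed loci, each sample left out, the 8C embryos left out and the compared stages alone. Leaving out 8C 2 and 16C 2 together was chosen after seeing the data. The tests were checked on simulated counts, in which the stage test missed most changes confined to a single stage and the step test missed most changes, also where all stages after EGA changed, so an uncalled stage effect or step does not show equal levels.

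The members and gene lists were chosen with earlier results of these data known. Named are all members, per partner role up to 2 genes with the largest rise and 2 with the largest fall past the threshold, CDK1, CDK2, CDK4 and CDK6, and for each member that passed the 8-stage filter the 2 loci most like it. PKMYT1 was added after its values were seen. Marker genes, WEE1 counts and single samples are given for checks. Plots were drawn with Python 3.11.15 and matplotlib 3.10.9.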

Additional observations from a re-analysis of the deposited data

How the results depend on the processing

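With 2 samples a stage, single-stage differences were poorly resolved, and CCND2, CCND3 and CCNA1 rested on 60, 66 and 143 reads. The number of members with a stage effect was 2 and ranged from 1 to 4 with each sample left out in turn. Members called at EGA were 3, with 1 in DESeq2 and 1 to 4 with a sample left out (1 without 2C sample 2, 4 without CM sample 2). Called member steps were 1, with 2 at a pseudocount of 5 (CCNA1 from 4C to 8C gained), 0 when only the compared stages were fitted, and 0 to 2 with a sample left out. Of the family ratios 1 was called with the planned adjustment over 8 pairs. CCNA1/CCNA2 was called over 8 pairs as well with a pseudocount of 5, without 16C sample 2, without BL sample 2, and without 8C 2 and 16C 2. With adjustment over the 3 pairs formed, settled after seeing the data, 2 ratios were called, 1 with a pseudocount of 0.5, 1 without the 8C embryos and 1 to 2 with a sample left out. The 28 partner genes called stayed within 1.5 times that count in every alternative. CCNE2 at EGA ranged from 1.55 to 2.24, called in all 27 alternatives. CCND2/CCND3 ranged from 1.09 to 2.96, called in all alternatives over 3 pairs and lost in 7 of 22 over 8. The CDK2 change turned to -0.034 in edgeR. CCND3 turned to 4.0e-04 without 8C 2 and 16C 2 (p = 0.999, exact permutation). Over all loci, 7075 were called at EGA without the filter against 4619 with it, the unfiltered fit testing more loci. Scaling by total reads moved the median change of all loci from 0.23 to 0.66 on the log2 scale. The causes of the other shifts were not tested. Correlations between stages of the deviations of replicate 1 lay between -0.26 and 0.13, and 1 of 28 was over 0.1. They show little shift shared by replicate number, and cannot tell whether samples shared a donor cow or a flush. With the replicate block, 3 members had a stage effect, since CCNE1 passed (adjusted p = 0.0425), and 3 changed at EGA, with 1 step, 2 family ratios over 3 pairs (1 over 8) and 28 partner genes called.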
